A study of Mus musculus with 15 samples.

Results

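Neural stem cell identity genes are described here in mouse neural progenitor cells in which LINE-1 elements were targeted with short hairpin RNAs (shRNAs). The 10 genes Sox1, Sox2, Sox3, Sox9, Pax6, Nes, Vim, Fabp7, Prom1 and Msi1 were taken by name from the 34989 genes of the count table, and all 10 were among the 15147 genes tested. Their transcripts were summed to genes and compared in 5 groups of 3 libraries. The groups received an shRNA called shLINE_Orf1 together with a full-length LINE-1 (shLINE_Orf1+LINE-1), the shRNA shLINE_MdV_I, the shRNA shLINE_Orf2, the shRNA shLINE_Orf1, or a control shRNA (shControl). In all 5 groups the cells were wild type, grew with FGF2, EGF and heparin, received plasmids carrying the shRNA and EGFP, and were sorted for GFP 3 days later. LINE-1 elements are retrotransposons, and per the series' design text the study used shRNAs against young and against old elements. The added LINE-1 accompanied the shRNA against young ones, which the labels pair with shLINE_Orf1. The labels do not say which age the other shRNAs target, and the level of LINE-1 itself was not analysed here. Nothing in the labels says that replicates came from separate cultures, so the p-values reflect spread among libraries only, and that spread may be technical.

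Neural stem and progenitor cells keep dividing while they hold back neuronal and glial differentiation. SOXB1 proteins (the products of Sox1, Sox2 and Sox3), SOX9 and PAX6 are DNA-binding factors of this state, nestin and vimentin are its intermediate filaments, FABP7 is a fatty acid binding protein of radial glia, prominin-1 (CD133) is a membrane protein used to sort such cells, and Musashi-1 is an RNA-binding protein. In bulk RNA, fewer cells of a type and less RNA per cell cannot be told apart.

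The libraries held between 39209073 and 51075910 gene counts. The library shLINE_Orf1 replicate 1 stood far from the rest, and shControl replicate 2 stood apart to a lesser degree. On the leading principal component, which held 23.9% of the variance, they lay at 75.9 and 24.3, against -18.9 to 4.72 for the other 13 libraries. Mitochondrial transcripts made up 3.61% and 2.02% of their counts, against 1.36% to 1.97% elsewhere. Tests below that change without these libraries are given with and without them, and why the pair stands apart was not tested.

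None of the 10 genes passed the test in any comparison of 15 libraries. With the quasi-likelihood test of edgeR and p-values adjusted by Benjamini-Hochberg over all genes, 0 of 10 were called at an adjusted p under 0.05 in shLINE_Orf1+LINE-1 against shControl, where 0.139% of all genes were called. The count was also 0 in shLINE_MdV_I against shControl (background 0.594%), in shLINE_Orf2 against shControl (0.191%), in shLINE_Orf1 against shControl (0.178%) and in shLINE_Orf1+LINE-1 against shLINE_Orf1 (0%). At an unadjusted p under 0.05 the counts in these comparisons were 0, 1, 0, 1 and 3 of 10, against 8.77%, 8.64%, 7%, 10.5% and 11.1% of all genes. DESeq2 called 0 in all of them, and limma-voom with quality weights called 2 (Sox1 and Sox3), 1 (Sox3), 1 (Nes), 0 and 0. In the comparisons where it called any, limma-voom called 3.59%, 2.59% and 2.53% of all genes.

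The intervals, each for 1 gene on its own, give the differences that the spread among these libraries allows. That spread may be technical. All 40 of the 95% intervals for the 10 genes in the 4 comparisons with shControl lay within a 2-fold change in either direction, and 24 lay within 1.5-fold. The estimates ran between -0.39 and 0.47 on the log2 scale. The lowest bound was a fold of 0.558, for Nes in shLINE_Orf1, and the highest was a fold of 1.95, for Fabp7 in shLINE_Orf1. Both belong to the group that holds the library farthest from the rest. Without the pair that stands apart, all 40 intervals again lay within 2-fold, and 36 lay within 1.5-fold.

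**Figure D1:**
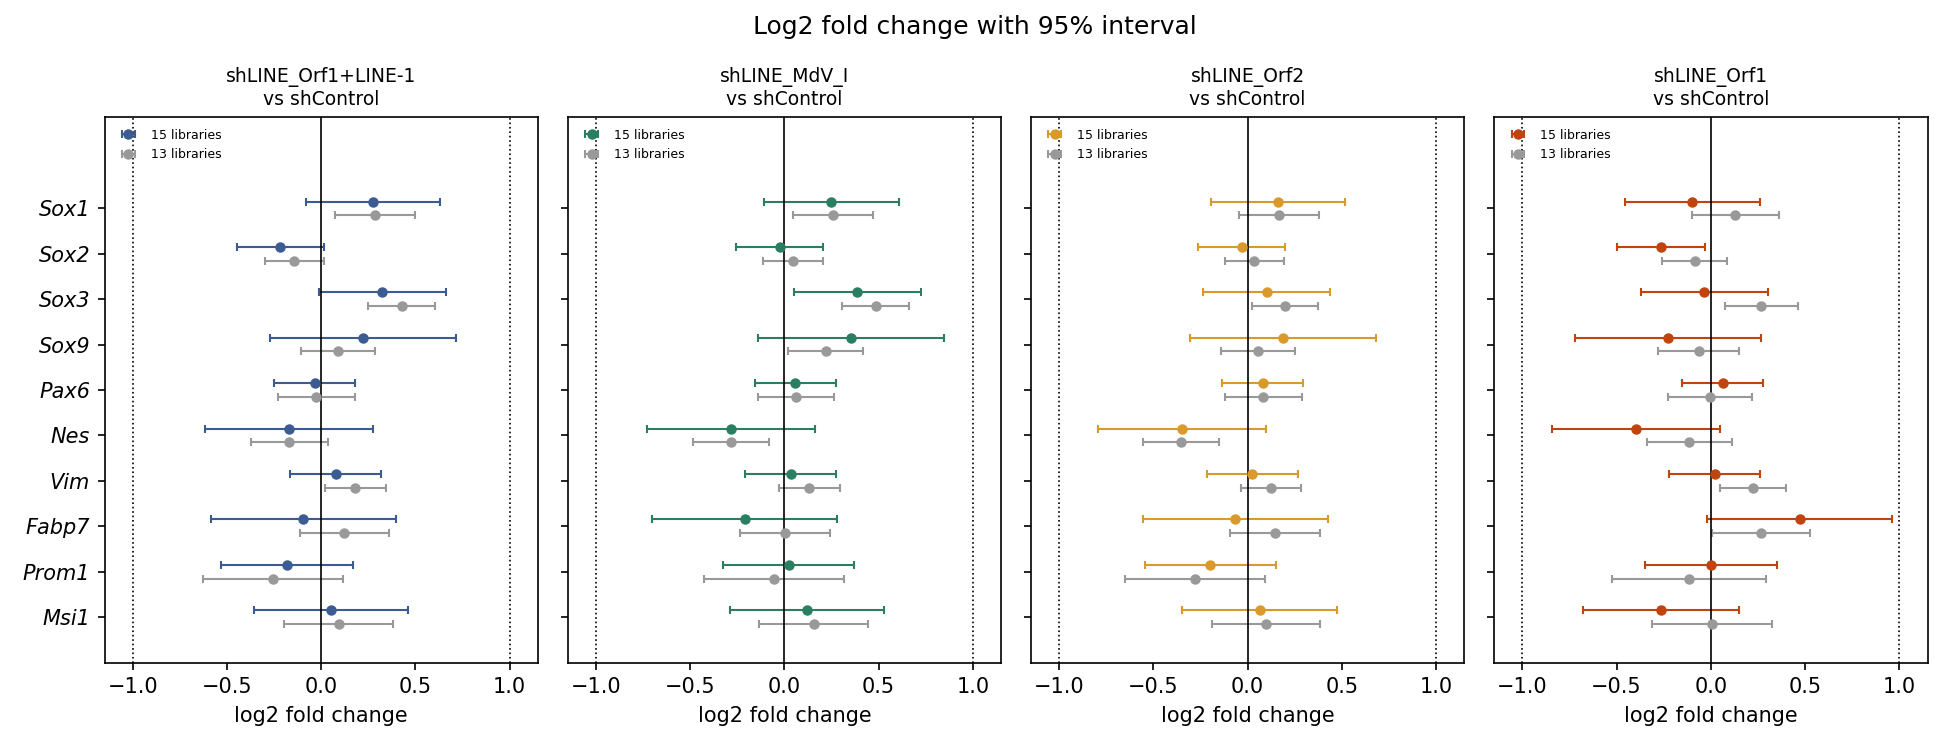
Log2 fold change (x axis) of each identity gene (y axis) with its 95% interval, in 4 panels that compare each shRNA group with shControl; coloured points use 15 libraries and grey points use 13, without shLINE_Orf1 replicate 1 and shControl replicate 2. Dotted lines mark a 2-fold change, and all 40 coloured intervals lie between them, with Sox3 to the right of 0 in the shLINE_MdV_I panel.

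The number of genes above and below 0 varied with the comparison. In shLINE_Orf1+LINE-1 against shControl 5 had a higher and 5 a lower estimate, with a median log2 fold change of 0.01 beside -0.02 for all genes. In shLINE_MdV_I against shControl 7 were higher and 3 lower (median 0.04, all genes -0.01). In shLINE_Orf2 against shControl 6 were higher and 4 lower (0.04, all genes -0.01), and in shLINE_Orf1 against shControl 4 were higher and 6 lower (-0.07, all genes -0.01). In shLINE_Orf1+LINE-1 against shLINE_Orf1 the estimate was higher for 7 and lower for 3 (0.14, all genes -0.01). It was higher for 8 and lower for 2 in shLINE_MdV_I against shLINE_Orf1 (0.18), in shLINE_MdV_I against shLINE_Orf2 (0.06) and in shLINE_Orf2 against shLINE_Orf1 (0.09).

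These counts moved without the pair that stands apart. Against shControl, 6 were then higher and 4 lower in shLINE_Orf1+LINE-1 (median 0.09), 8 and 2 in shLINE_MdV_I (0.10), 8 and 2 in shLINE_Orf2 (0.09), and 5 and 5 in shLINE_Orf1 (0.0016). In shLINE_Orf1+LINE-1 against shLINE_Orf1 there were 4 higher and 6 lower, with a median of -0.03. In shLINE_Orf2 against shLINE_Orf1, 5 were higher and 5 lower (-0.02), and in shLINE_MdV_I against shLINE_Orf1, 7 and 3 (0.10). In shLINE_MdV_I against shLINE_Orf2 there were again 8 higher and 2 lower (0.06). The medians of all genes in that fit lay between -0.0087 and 0.0089 over the 10 comparisons.

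The 4 Sox genes encode transcription factors that bind DNA through an HMG box. Sox1, Sox2 and Sox3 form the SOXB1 family, which maintains neural progenitors with overlapping roles, and Sox9 promotes the neural stem cell state and, later, gliogenesis. Each has 1 counted transcript in GENCODE M21 on build GRCm38, and Sox1, Sox2 and Sox3 have a single exon. The coding stretches below, 90 bases within the HMG box, are shown because reads from these related genes must be told apart for the values that follow. They run 5′ to 3′ on the strand of the gene, and capitals mark bases that differ from Sox2. The Sox2 stretch lies at chr3:34650648-34650737 (+), the Sox1 stretch at chr8:12396617-12396706 (+) and the Sox3 stretch at chrX:60892806-60892895 (−). The Sox9 stretch spans bases 780 to 869 of its transcript, across an exon junction.
Sox2: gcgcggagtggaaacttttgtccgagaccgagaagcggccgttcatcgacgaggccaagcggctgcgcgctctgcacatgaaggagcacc
Sox1: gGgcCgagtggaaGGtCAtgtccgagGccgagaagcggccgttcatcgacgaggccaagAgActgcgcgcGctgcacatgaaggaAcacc
Sox3: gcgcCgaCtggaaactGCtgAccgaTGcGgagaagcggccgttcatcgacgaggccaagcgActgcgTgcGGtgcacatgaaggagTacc
Sox9: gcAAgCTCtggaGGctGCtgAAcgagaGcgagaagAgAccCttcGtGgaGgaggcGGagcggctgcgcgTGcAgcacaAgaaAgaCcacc
In this stretch Sox1 shared 79 of 90 bases with Sox2, Sox3 shared 77 and Sox9 shared 64. Over whole transcripts, the longest identical run between Sox genes was 45 bases, between Sox1 and Sox3. Of their 31-base words, 0.895% (Sox1), 0.888% (Sox2), 0.934% (Sox3) and 1.27% (Sox9) also occurred in another gene, so that few reads could be split between them.

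Sox3 was the only one of the 10 that was called once the libraries that stand apart were left out. The gene lies at chrX:60891366-60893430 on the minus strand. It was at 65.6, 68.5 and 67.3 CPM (counts scaled to a fixed library size after TMM normalization) in shLINE_Orf1+LINE-1, at 71.5, 74.5 and 64.1 CPM in shLINE_MdV_I, at 57.4, 60.4 and 54.8 CPM in shLINE_Orf2, at 36.0, 62.4 and 58.6 CPM in shLINE_Orf1 and at 47.0, 60.6 and 53.3 CPM in shControl, in the order of the replicate numbers. Every library of shLINE_Orf1+LINE-1 and of shLINE_MdV_I was above every library of shLINE_Orf1 and of shControl, whereas shLINE_Orf2 overlapped with shControl. The lowest of the 15 values was shLINE_Orf1 replicate 1.

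The log2 fold change of Sox3 against shControl was 0.39 ± 0.16 (SE) in shLINE_MdV_I, with a Benjamini-Hochberg adjusted p of 0.489 by edgeR's quasi-likelihood test (unadjusted 0.0277). In shLINE_Orf1+LINE-1 it was 0.32 ± 0.16, with an adjusted p of 0.593 by the same test. Without the pair of libraries that stand apart, Sox3 passed the same test in both: 0.48 ± 0.08 with an adjusted p of 0.00466 in shLINE_MdV_I, and 0.43 ± 0.08 with an adjusted p of 0.0144 in shLINE_Orf1+LINE-1. In that fit 2.53% and 2.3% of all genes were called. It leaves out shControl replicate 2, which at 60.6 CPM was the shControl library with the most Sox3. The estimate in shLINE_Orf2 was then 0.20 ± 0.08 (adjusted p 0.260 by edgeR's test). In shLINE_Orf1 it was 0.27 ± 0.09 (adjusted p 0.164 by edgeR's test), against -0.03 with all libraries. It was also called in the 5-group F test without the pair (adjusted p 0.00911 by edgeR's test, with 6.02% of all genes called). With all 15 libraries 0 of 10 were called in the F test, where 0.944% of all genes were, and 0 of 10 had an unadjusted p under 0.05, beside 12% of all genes. DESeq2 also called 0 there, and limma-voom called 2 (Sox2 and Sox3), in a fit that called 10.2% of all genes.

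Sox2, which sustains pluripotency as well as neural progenitors, lies at chr3:34650405-34652461 (+). It was at 170, 176 and 178 CPM in shLINE_Orf1+LINE-1, at 207, 201 and 190.3 CPM in shLINE_MdV_I, at 198, 201 and 195 CPM in shLINE_Orf2, at 141, 197 and 168 CPM in shLINE_Orf1 and at 189, 222 and 198 CPM in shControl. The 3 shLINE_Orf1+LINE-1 libraries lay below every shControl library, and the shLINE_Orf1 libraries overlapped with shControl. The log2 fold change was -0.22 ± 0.11 in shLINE_Orf1+LINE-1 (adjusted p 0.606) and -0.26 ± 0.11 in shLINE_Orf1 (unadjusted p 0.0277, adjusted p 0.428), by edgeR's test with Benjamini-Hochberg adjustment. Without the pair that stands apart the value in shLINE_Orf1 was -0.09 ± 0.08, and that in shLINE_Orf1+LINE-1 was -0.14 ± 0.07.

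Sox1, at chr8:12395295-12400126 (+), encodes an early marker of the neural plate. It was at 26.2, 27.0 and 25.3 CPM in shLINE_Orf1+LINE-1, at 25.8, 25.7 and 25.6 CPM in shLINE_MdV_I, at 22.2, 26.2 and 24.2 CPM in shLINE_Orf2, at 13.3, 25.3 and 22.0 CPM in shLINE_Orf1 and at 23.2, 21.8 and 19.9 CPM in shControl. The libraries of shLINE_Orf1+LINE-1 and of shLINE_MdV_I were all above those of shControl, and limma-voom called Sox1 in shLINE_Orf1+LINE-1 (adjusted p 0.0440), while edgeR's test and DESeq2 did not call it in either group. Its log2 fold change in shLINE_Orf1+LINE-1 against shLINE_Orf1 was 0.37 ± 0.17 (adjusted p 0.422 by edgeR's test), and without the pair that stands apart it was 0.16 ± 0.10 (adjusted p 0.860).

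Sox9, at chr11:112782224-112787760 (+), varied most within groups. It was at 182, 175 and 178 CPM in shLINE_Orf1+LINE-1, at 225, 193 and 170.2 CPM in shLINE_MdV_I, at 174, 176 and 174 CPM in shLINE_Orf2, at 69.5, 170.4 and 153 CPM in shLINE_Orf1 and at 162, 123 and 176 CPM in shControl. The low values belonged to both libraries that stand apart. The largest of its estimates against shControl was 0.35 ± 0.23 on the log2 scale, in shLINE_MdV_I (adjusted p 0.765 by edgeR's test). With the pair left out it was 0.22 ± 0.09 (adjusted p 0.237). With the last number of the library description as a covariate it was 0.87 ± 0.20 and was called (adjusted p 0.0488 by edgeR's test). The share of all genes called in that fit was 1.1%. That number is 12 for shLINE_Orf1 replicate 1 and shLINE_MdV_I replicates 2 and 3, and 1 for the rest. In this fit the number and the state of the outlying library cannot be told apart.

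**Figure D2:**
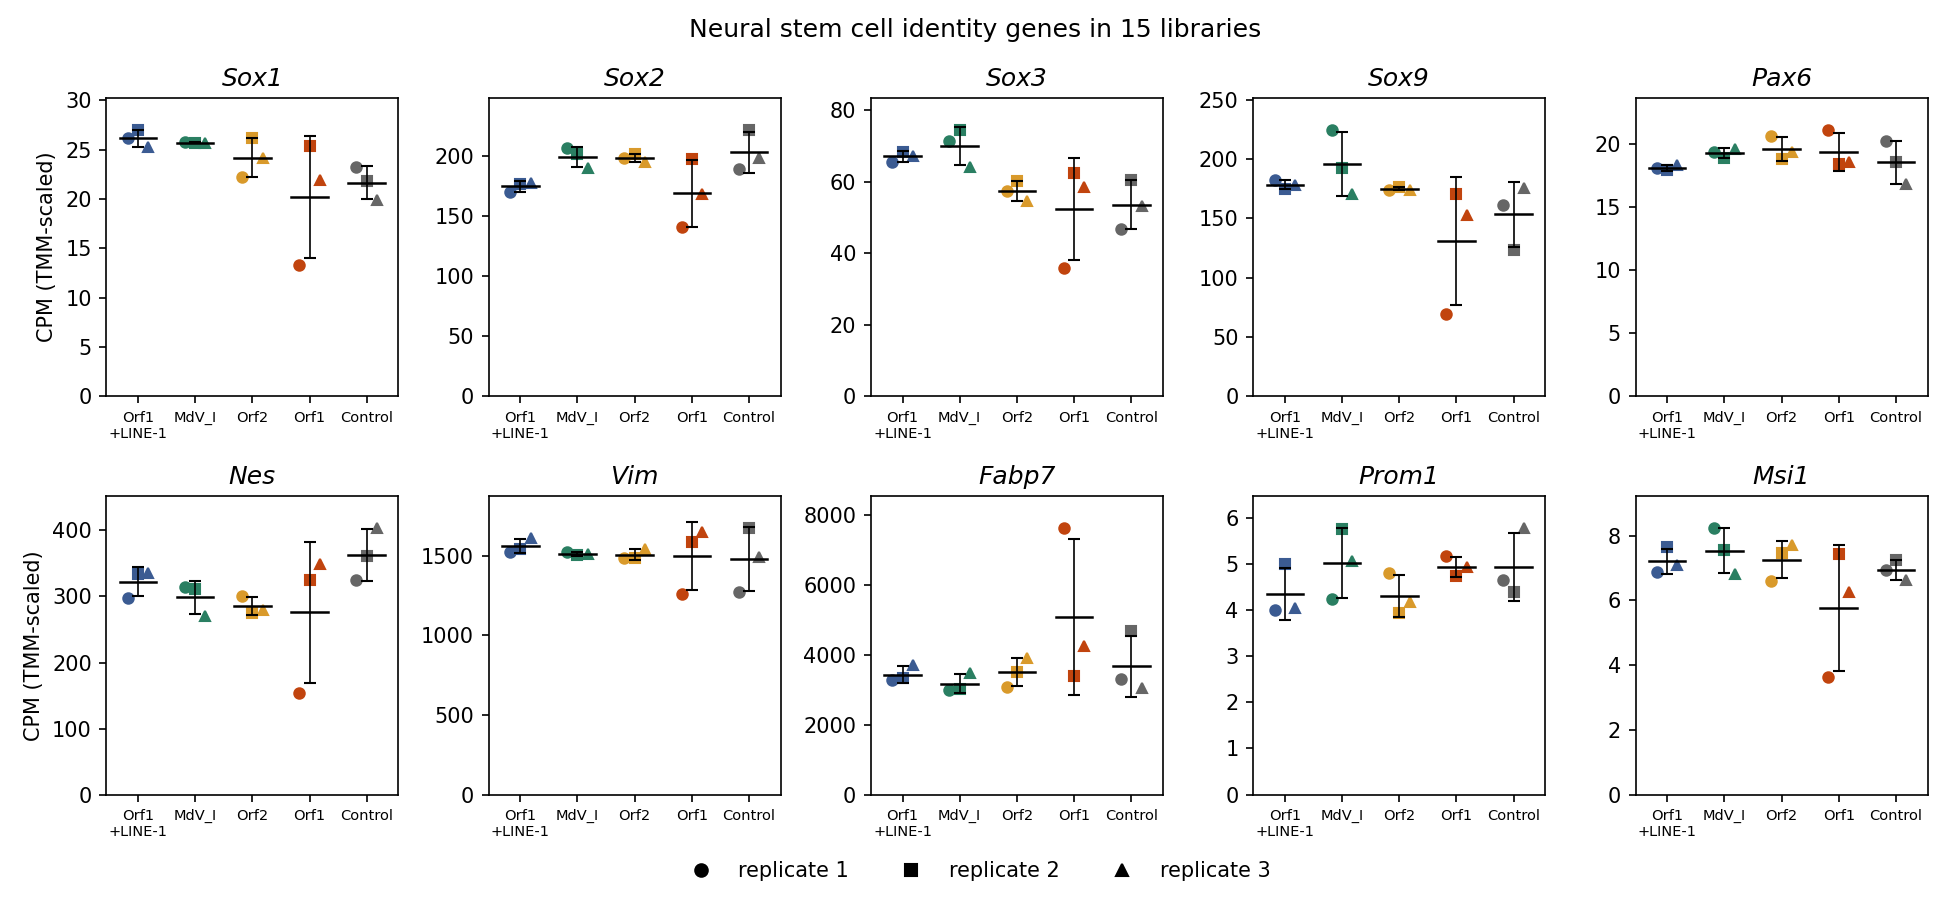
Level of each identity gene in CPM (y axis, from 0) in the 15 libraries, grouped along the x axis; each point is a library, its shape gives the replicate number, and lines with bars give the group mean and SD (n = 3). In 7 panels the lowest point is shLINE_Orf1 replicate 1, and in the Sox3 panel the points of shLINE_Orf1+LINE-1 and shLINE_MdV_I lie above 64, while those of shControl lie below 61.

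Few identity genes had groups that did not overlap, and their number can be read against all genes. In shLINE_Orf1+LINE-1, Sox1 and Sox3 were higher and Sox2 was lower in every library than in every shControl library, where 9.53% of all genes separated upward and 7.27% downward. In shLINE_MdV_I, Sox1 and Sox3 were higher and Nes was lower, beside 8.22% and 6.65% of all genes. In shLINE_Orf2 only Nes separated, downward, as 5.11% of all genes did, and in shLINE_Orf1 none of the 10 separated, beside 4.86% of all genes upward and 4.41% downward. In shLINE_Orf1+LINE-1 against shLINE_Orf1, Sox3 and Sox9 were higher and Pax6 was lower in every library, beside 9.46% and 7.95% of all genes.

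Between the shRNA groups, Vim was higher and Sox2 and Pax6 were lower in every library of shLINE_Orf1+LINE-1 than in every library of shLINE_MdV_I, beside 13.7% of all genes upward and 13.4% downward. Against shLINE_Orf2, the shLINE_Orf1+LINE-1 libraries were all higher for Sox3 and all lower for Sox2 and Pax6 (13.5% and 13%). Sox3 was higher in every library of shLINE_MdV_I than of shLINE_Orf2, with none lower (8.97% and 8.53%). Sox1 and Sox3 were higher in every library of shLINE_MdV_I than of shLINE_Orf1, with none lower (9.57% and 9.63%). In shLINE_Orf2 against shLINE_Orf1 only Sox9 separated, upward (7.9%, and 6.26% downward).

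Pax6, which encodes a paired-box and homeobox factor of dorsal neural progenitors and of the eye, was the steadiest of the 10. The gene lies at chr2:105668900-105697364 (+). It was between 17.9 and 18.4 CPM in shLINE_Orf1+LINE-1, between 18.9 and 19.6 CPM in shLINE_MdV_I, between 18.8 and 20.7 CPM in shLINE_Orf2, between 18.4 and 21.1 CPM in shLINE_Orf1 and between 16.8 and 20.3 CPM in shControl. The highest of 15 libraries was 1.26 times the lowest. Its within-group SD was 0.085 on the log2 scale, beside a median of 0.221 for all genes, and the SD of Sox9 was 0.350.

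Pax6 transcripts differ by an alternative exon of 42 bases within the paired-box coding sequence, and the form that includes it is known as PAX6(5a). The exon is shown because it separates the transcripts compared next. It lies at chr2:105684751-105684792 (+) on GRCm38, and the sequence runs 5′ to 3′ with 15 bases of the transcript on either side. Capitals mark the exon.
Pax6 alternative exon: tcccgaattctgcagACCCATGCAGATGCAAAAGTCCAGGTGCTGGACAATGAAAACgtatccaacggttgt
Of 10 coding transcripts that span this place, 5 include it. They made up 25.5% ± 5.2 of the coding Pax6 level per length in shLINE_Orf1+LINE-1, 33.9% ± 2.2 in shLINE_MdV_I, 28.3% ± 4.3 in shLINE_Orf2, 20.1% ± 6.5 in shLINE_Orf1 and 28.8% ± 6.9 in shControl (SD, n = 3 each). The shLINE_MdV_I libraries, at 31.4%, 35.2% and 35.0%, were all above the shLINE_Orf1 libraries, at 14.6%, 27.3% and 18.4%. The shares of all shRNA groups overlapped with those of shControl, at 35.3%, 29.5% and 21.6%. These shares come from RSEM's split of reads among overlapping transcripts, and their difference was not tested.

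**Figure D3:**
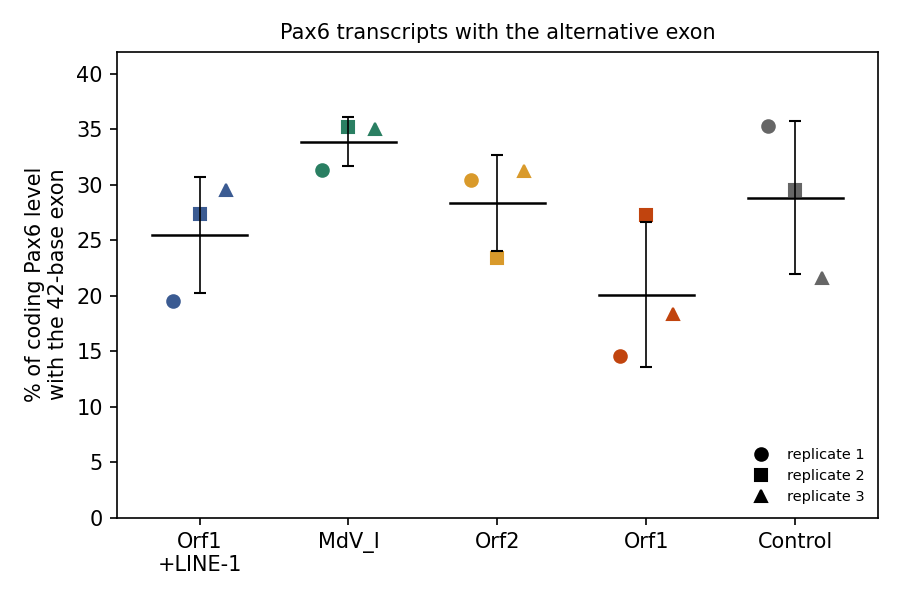
Percentage of the coding Pax6 level carried by transcripts with the 42-base exon (y axis, from 0) in the 5 groups (x axis); each point is a library, its shape gives the replicate number, and lines with bars give the group mean and SD (n = 3). The shLINE_MdV_I points, from 31.4% to 35.2%, lie above the shLINE_Orf1 points, from 14.6% to 27.3%, and shControl spans 21.6% to 35.3%.

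Nes encodes nestin, the intermediate filament protein most used to mark neural stem cells, and lies at chr3:87971078-87980451 (+). It was at 297, 334 and 336 CPM in shLINE_Orf1+LINE-1, at 314, 312 and 269.95 CPM in shLINE_MdV_I, at 300.4, 276 and 279.97 CPM in shLINE_Orf2, at 154, 325 and 350 CPM in shLINE_Orf1 and at 325, 362 and 403 CPM in shControl. All libraries of shLINE_MdV_I and shLINE_Orf2 were below all shControl libraries, and the other groups overlapped with shControl. The log2 fold change in shLINE_Orf2 was -0.35 ± 0.21 (adjusted p 0.885 by edgeR's test). It was -0.35 ± 0.10 without the pair that stands apart, with an adjusted p of 0.0727 by the same test.

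Vim encodes vimentin, an intermediate filament protein that many immature and mesenchymal cells share, and lies at chr2:13573927-13582826 (+). It was between 1525 and 1608 CPM in shLINE_Orf1+LINE-1, between 1501 and 1523 CPM in shLINE_MdV_I, between 1482 and 1544 CPM in shLINE_Orf2, between 1256 and 1651 CPM in shLINE_Orf1 and between 1271 and 1672 CPM in shControl. Every shRNA group overlapped with shControl. The coding transcript Vim-201 held 70.5% of its level on average, and the retained-intron transcript Vim-203 held 17.8%.

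Fabp7 was the most abundant of the 10, and lies at chr10:57784881-57788450 (+). It was at 3268, 3329 and 3715 CPM in shLINE_Orf1+LINE-1, at 3002, 3020.2 and 3493 CPM in shLINE_MdV_I, at 3091, 3514 and 3914 CPM in shLINE_Orf2, at 7628, 3403 and 4245 CPM in shLINE_Orf1 and at 3298, 4675 and 3043 CPM in shControl. The highest values were those of the libraries that stand apart, and all groups overlapped with shControl. The log2 fold change was 0.47 ± 0.23 in shLINE_Orf1 against shControl (adjusted p 0.485) and -0.57 ± 0.23 in shLINE_Orf1+LINE-1 against shLINE_Orf1 (adjusted p 0.422), by edgeR's test. Over the other 13 libraries they were 0.27 ± 0.12 and -0.14 ± 0.11.

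Prom1, at chr5:43993620-44102032 (−), and Msi1, at chr5:115429599-115455698 (+), were the least abundant. Prom1 was between 3.99 and 5.01 CPM in shLINE_Orf1+LINE-1, between 4.24 and 5.76 CPM in shLINE_MdV_I, between 3.94 and 4.81 CPM in shLINE_Orf2, between 4.74 and 5.17 CPM in shLINE_Orf1 and between 4.39 and 5.78 CPM in shControl. Its log2 fold change in shLINE_Orf2 was -0.20 ± 0.16 (adjusted p 0.968 by edgeR's test). Msi1 was between 6.88 and 7.65 CPM in shLINE_Orf1+LINE-1, between 6.82 and 8.23 CPM in shLINE_MdV_I, between 6.61 and 7.71 CPM in shLINE_Orf2, between 3.62 and 7.44 CPM in shLINE_Orf1 and between 6.64 and 7.26 CPM in shControl. Every group overlapped with shControl for both genes.

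Transcripts of the 10 genes gave no call either. The table holds 69 of them, 36 were tested, and 0 were called in the 5-group F test, beside 0.0449% of the 48980 transcripts tested. At an unadjusted p under 0.05 there was 1, and limma-voom called 0. DESeq2 called 1, Prom1-207 (adjusted p 0.00466), in a fit that called 3.31% of transcripts. Prom1-207, a coding transcript, had the smallest p (unadjusted 0.00613, adjusted 0.582 by edgeR's test). Its expected counts were 43.6, 19.2 and 51.5 in shLINE_Orf1+LINE-1, 64.2, 138.3 and 62.9 in shLINE_MdV_I, 1.3, 0 and 0 in shLINE_Orf2, 26.6, 36.2 and 41.6 in shLINE_Orf1 and 70.5, 0 and 60.1 in shControl. The shLINE_Orf2 libraries were at or near 0, as was 1 shControl library. Without the pair that stands apart Prom1-207 was called (adjusted p 0.0457, with 0.162% of transcripts called).

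Pairs of shRNA groups gave the same picture. In shLINE_MdV_I against shLINE_Orf1, 0 of 10 were called (background 0.687%) and 4 had an unadjusted p under 0.05, as 16.4% of all genes had. In shLINE_Orf2 against shLINE_Orf1 the numbers were 0 and 2 (background 0% and 11.4%). The smallest p in both belonged to Fabp7, at -0.68 ± 0.23 on the log2 scale (edgeR's test, adjusted p 0.216) and at -0.54 ± 0.23 (edgeR's test, adjusted p 0.434). Once the pair was left out they were -0.26 ± 0.11 and -0.12 ± 0.11. The others with an unadjusted p under 0.05 in shLINE_MdV_I against shLINE_Orf1 were Sox9 (0.58 ± 0.23), Sox3 (0.42 ± 0.16) and Sox2 (0.24 ± 0.11), which were at 0.28, 0.22 and 0.13 without the pair. In shLINE_Orf2 against shLINE_Orf1 it was Sox2 (0.23 ± 0.11, and 0.12 without the pair). Sox3 in shLINE_Orf1+LINE-1 against shLINE_Orf1 was at 0.36 ± 0.16 (adjusted p 0.422 by edgeR's test), and at 0.16 ± 0.08 without the pair (adjusted p 0.821). In shLINE_Orf1+LINE-1 against shLINE_MdV_I, shLINE_Orf1+LINE-1 against shLINE_Orf2 and shLINE_MdV_I against shLINE_Orf2, 0 of 10 were called (background 0.68%, 0.238% and 0.112%) and 0 of 10 had an unadjusted p under 0.05 (background 8.49%, 9% and 5.45%). The genes of smallest p there were Sox2 (-0.19 ± 0.11), Sox2 (-0.18 ± 0.11) and Sox3 (0.28 ± 0.16), with adjusted p of 0.712, 0.694 and 1 by edgeR's test. DESeq2 called 0 in these 5 pairs, and limma-voom called 4, 1, 1, 1 and 1 of the 10, in the order given. Of all genes, limma-voom called 11.2%, 5.48%, 11%, 10.2% and 3.44% in that order.

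Levels per length place the 10 genes on the common scale of TPM, in which counts are divided by transcript length. Over 15 libraries Fabp7 averaged 7847 ± 1287 TPM (SD) and ranked 6 among the tested genes, followed by Vim at 1402 ± 170 TPM. Sox2 averaged 158 ± 23.8, Nes 92.4 ± 19.7, Sox9 70.2 ± 17.7 and Sox3 50.3 ± 10.4 TPM. Pax6 averaged 11.7 ± 1.1, Sox1 8.45 ± 1.67, Msi1 6.93 ± 1.54 and Prom1 2.63 ± 0.37 TPM. Neighbours in this order kept it in all 15 libraries, except that Nes exceeded Sox9 in 14 and Sox9 exceeded Sox3 in 14. Sox2 was thus the highest of the SOXB1 genes in every library. With the union of annotated exons as the length, Pax6 and Sox1 change places, at 4.85 and 14.7 TPM.

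Much of the spread among the 10 came from shLINE_Orf1 replicate 1 and moved with transcript length. In CPM, that library held the lowest value of 7 of the 10 genes and the highest of Fabp7 and Pax6. In TPM, Pax6 (9.56) and Prom1 (2.02) were at their lowest of 15 libraries there. In log2 CPM relative to the mean of the other 14 libraries, Fabp7, with a transcript of 804 bases, was higher by 1.14. Sox9 (4135 bases) was at -1.31, Nes (5789 bases) at -1.05 and Sox1 (4832 bases) at -0.86. Msi1 (1733 bases) was at -0.97 and Sox3 (2065 bases) at -0.77, while Prom1 (3075 bases) was at 0.15, so that length did not order the genes fully. Over all 15147 genes the deviation of that library had a Pearson r of -0.506 with log2 length, as a description across genes that share the library. In CPM, the highest of 15 libraries was between 1.26 (Pax6) and 3.23 (Sox9) times the lowest for the 10 genes. Without that library it was between 1.23 and 1.83 times. What gave rise to the length pattern was not tested.

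**Figure D4:**
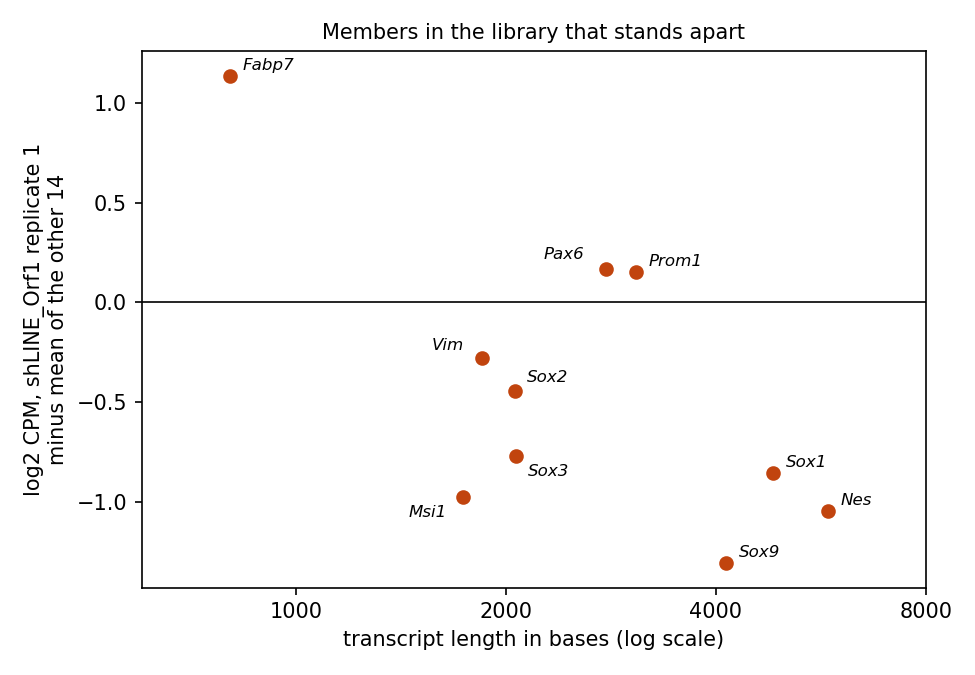
Log2 CPM in shLINE_Orf1 replicate 1 minus the mean of the other 14 libraries (y axis) against transcript length in bases (x axis, log scale); each point is an identity gene. Fabp7, the shortest, is at 1.14, and Sox9, Nes and Sox1, the longest, lie between -1.31 and -0.86.

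Across the 15 libraries, the genes most like Sox2, Nes and Pax6 in log2 CPM were sought among 9524 genes by Pearson r, as a description without a test. For Sox2 they included Hps4 (0.908) and Zfp36l1 (0.907). For Nes they were Trim35 (0.967), Ptpn11 (0.945) and Map4k4 (0.942), and for Pax6 Gtf2e2 (0.844), Arhgap18 (0.818) and Kdelc1 (0.798). For Sox3, added after its values were seen, they were Zfp219 (0.943), E2f2 (0.938) and Pola2 (0.937). Over the 13 libraries without the pair that stands apart these values lay between 0.729 (Map4k4) and 0.939 (E2f2). Among the 45 pairs of identity genes 24 were positive. The highest was Sox1 with Msi1 (0.917, and 0.657 over 13 libraries) and the lowest Sox9 with Fabp7 (-0.947, and -0.619). The libraries share depth and quality differences, which these values include.

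Few other genes of the neural stem cell programme were called. A list of 48 (Notch and BMP targets, receptors, and further transcription factors) was tested in the same fit, and 0 were called against shControl in any of the 4 groups, or in shLINE_Orf1+LINE-1 against shLINE_Orf1. At an unadjusted p under 0.05 there were 6 in shLINE_Orf1+LINE-1, 7 in shLINE_MdV_I, 6 in shLINE_Orf2 and 3 in shLINE_Orf1 against shControl, and 2 in the last comparison. The shares over all genes were 8.77%, 8.64%, 7%, 10.5% and 11.1%. DESeq2 called 0, 1, 2, 0 and 0 of the 48 in the same order, and limma-voom called 4, 4, 4, 2 and 2. The estimate was higher for 31, 28, 24 and 20 of the 48 in shLINE_Orf1+LINE-1, shLINE_MdV_I, shLINE_Orf2 and shLINE_Orf1 against shControl, with median log2 fold changes of 0.09, 0.04, 0.01 and -0.09, beside -0.02, -0.01, -0.01 and -0.01 for all genes. With the pair left out, these medians of the list were 0.05, 0.04, -0.0027 and -0.0059. The smallest p in these 4 belonged to Id4, an inhibitor of bHLH factors (0.56 ± 0.19, adjusted p 0.373), Btg2, an antiproliferative gene of progenitors about to divide into neurons (0.47 ± 0.10, 0.0505), Hey1, a Notch target (0.43 ± 0.10, 0.107), and Sox6 (-0.28 ± 0.10, 0.384), by edgeR's test. In shLINE_Orf1+LINE-1 against shLINE_Orf1 it belonged to Sox21 (0.68 ± 0.20, adjusted p 0.422 by edgeR's test).

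Btg2 stood out in shLINE_MdV_I. It was at 56.9, 54.3 and 54.0 CPM in shLINE_Orf1+LINE-1, at 92.9, 83.3 and 99.3 CPM in shLINE_MdV_I, at 56.3, 65.5 and 61.97 CPM in shLINE_Orf2, at 61.1, 65.9 and 62.9 CPM in shLINE_Orf1 and at 59.0, 73.6 and 66.6 CPM in shControl. All 3 shLINE_MdV_I libraries were above every other library. Many genes separated this way from a single group: 8.22% from shControl, 9.57% from shLINE_Orf1, 8.97% from shLINE_Orf2 and 13.4% from shLINE_Orf1+LINE-1. The share of genes above all other libraries at once was not counted. By edgeR's test Btg2 was higher in shLINE_MdV_I than in shLINE_Orf1 (0.54 ± 0.10, adjusted p 0.0251) and in shLINE_Orf2 (0.59 ± 0.10, adjusted p 0.0321), and lower in shLINE_Orf1+LINE-1 than in shLINE_MdV_I (-0.74 ± 0.10, adjusted p 0.00332). Sox6, which encodes a SOXD factor, was the other gene of the list called, in shLINE_MdV_I against shLINE_Orf1 (0.53 ± 0.10, adjusted p 0.0290 by edgeR's test). Without the pair that stands apart, Btg2 was also called in shLINE_MdV_I against shControl (0.55 ± 0.09, adjusted p 0.00312 by edgeR's test), and more of the list was called. Against shControl there were 3 higher and 1 lower in shLINE_Orf1+LINE-1 (2.3% of all genes called), 3 higher and 2 lower in shLINE_MdV_I (2.53%), 2 higher and 2 lower in shLINE_Orf2 (1.77%), and 0 in shLINE_Orf1 (0.902%). The most were 7 higher and 2 lower, in shLINE_Orf1+LINE-1 against shLINE_Orf2 (3.68%). Hes5, a Notch target, was among those called in shLINE_Orf1+LINE-1, shLINE_MdV_I and shLINE_Orf2. These calls rest on the fit without shControl replicate 2, which was at 41.8 CPM, against 22.4 and 21.6 CPM in the other shControl libraries. With all 15 libraries every shRNA group overlapped with shControl for Hes5. The ranges were 32.98 to 40.1 CPM in shLINE_Orf1+LINE-1, 35.3 to 48.02 CPM in shLINE_MdV_I, 36.8 to 53.05 CPM in shLINE_Orf2 and 30.04 to 52.4 CPM in shLINE_Orf1.

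Markers of other cells were checked beside these results. Summed neuronal markers ran between 395 and 430 CPM in shLINE_Orf1+LINE-1, 432 and 461 CPM in shLINE_MdV_I, 397 and 442 CPM in shLINE_Orf2, 373 and 418 CPM in shLINE_Orf1, and 335 and 521 CPM in shControl, most of it Map2. The sum for astrocytes was 383 to 553 CPM and that for the oligodendrocyte lineage 2078 to 3515 CPM over the 15 libraries. Sums were low for intermediate progenitors (1.82 to 6.87 CPM, with Neurog1 at 0), microglia (0.845 to 2.44 CPM, with Aif1 at 0), mesenchymal cells (0.27 to 1.25 CPM), pluripotent cells (0.238 to 0.771 CPM), ependymal cells (7.12 to 11.7 CPM) and endothelium (21.7 to 48.5 CPM). Of all these markers 1 was called against shControl by edgeR's test, the synaptic gene Snap25 in shLINE_MdV_I (0.83 ± 0.15, adjusted p 0.0182), where 0.594% of all genes were called. DESeq2 called 1 neuronal marker in shLINE_MdV_I, 1 microglial marker in shLINE_Orf2 and 1 ependymal marker in shLINE_Orf1+LINE-1 against shControl. Limma-voom called more, among them 2 of the oligodendrocyte lineage in each of shLINE_Orf1 and shLINE_Orf1+LINE-1. In shLINE_MdV_I against shLINE_Orf1 the neuronal gene Neurod1 and the oligodendrocyte lineage genes Pdgfra and Sox10 were called, and Sox10 was lower in shLINE_Orf1+LINE-1 than in shLINE_MdV_I (-1.09 ± 0.22, adjusted p 0.0289 by edgeR's test). The shares of all genes called there were 0.687% and 0.68%. Without the pair that stands apart, Neurod1 and Sox10 were no longer called in shLINE_MdV_I against shLINE_Orf1, where 1.03% of all genes were. Pdgfra (0.91 ± 0.17) was still called there, and the astrocyte marker S100b (-0.77 ± 0.15) was called lower. In the fit without the pair, where Sox3 was called, the oligodendrocyte precursor genes Pdgfra (-0.69 ± 0.16) and Cspg4 (-0.55 ± 0.13) were lower and the ciliogenesis factor Foxj1 (0.62 ± 0.13) was higher in shLINE_Orf1+LINE-1 than in shControl. Snap25 was again called in shLINE_MdV_I against shControl there (0.85 ± 0.15). Against shControl that fit called 2.3% of all genes in shLINE_Orf1+LINE-1 and 2.53% in shLINE_MdV_I. In shLINE_Orf1+LINE-1 against shLINE_MdV_I it called 3.73%. There 4 of 8 neuronal markers tested were called, all lower (Dcx, Tubb3, Neurod1 and Snap25). Of 7 oligodendrocyte lineage markers 3 were lower, while the astrocyte marker S100b and Foxj1 were higher. Genes of dividing cells summed to 1353 to 1456 CPM in shLINE_Orf1+LINE-1, 1217 to 1346 CPM in shLINE_MdV_I and 1243 to 1403 CPM in shControl. In shLINE_Orf2 their sums, 1407 to 1476 CPM, lay above those of shControl, and in shLINE_Orf1 they were 1383 to 1689 CPM. The part of any of these in the values of Sox3 was not tested.

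The authors' deposited table gives, for each gene, their own model of a young LINE-1 effect, on a scale that is not named. In the authors' deposited table the estimate was positive for 9 of the 10 identity genes and negative for Fabp7 (-0.449, with a standard error of 0.226 and a p-value of 0.142). Sox2 had 0.184 (standard error 0.186) and Sox3 had 0.305 (standard error 0.220) in the authors' deposited table. Of the 10 genes 0 had a p-value under 0.05 there, beside 2.66% of all genes in the authors' deposited table, and the adjusted p-value was 1 for all 17921 genes.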

How the data were processed

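The authors deposited 1 expected count per transcript and library, which is RSEM's estimate of reads and is not normalized. The submitters' processing notes name cutadapt, RSEM and mm10; their versions, the annotation and the strand setting are not stated in the labels used here. Expected counts of the 110203 transcripts with a gene in GENCODE M21 (GRCm38, the build that mm10 names) were summed to 34989 genes and rounded; 1259 transcripts without one and 1 blank row (0.583% to 0.637% of a library) were left out. The authors' deposited table of their own model holds an estimate and t score and a p-value per gene, per the file headers.

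Genes were filtered with filterByExpr (minimum count 10), scaled with TMM and fitted as 5 groups with edgeR's robust quasi-likelihood method. P-values were adjusted over all genes by Benjamini-Hochberg, and a gene was called under 0.05. The biological coefficient of variation common to all genes was 0.158. CPM, a count scaled to a fixed library size, uses the TMM-scaled library size. Groups and replicate numbers come from the sample titles. Replicates differed beyond counting noise in every pair (chi-square per degree of freedom 7.32 to 261). The scripts were tested on simulated data.

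The members and lists were chosen with earlier results of these data known. All 10 members are named with their levels, with fold changes in the 4 comparisons with shControl and in shLINE_Orf1+LINE-1 against shLINE_Orf1 where the unadjusted p was under 0.05 (or the 2 of smallest p), and for the 1 gene of smallest p in each other pair. Fold changes printed beyond these were chosen after their values were seen. Of the genes most like Sox2, 1 is not reported here. Alternatives were RLE or no scaling, no filter or at least 50 counts in at least 3 libraries, DESeq2, limma-voom (with quality weights), a fit of the compared groups alone, a replicate block, a covariate for the last number in each library's description, leaving out each library, and leaving out the pair that stands apart; the transcript fits with DESeq2 and limma-voom were chosen after seeing the data. Antisense and nested genes at Sox1 and Prom1 overlap exons. They are not among the counted genes, so a split of reads with them cannot be seen here. The tools were R 4.3.3, edgeR 4.0.16, limma 3.58.1, DESeq2 1.42.0, Python 3.11.15, pandas 2.3.3, numpy 2.4.6 and matplotlib 3.10.9.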

Additional observations from a re-analysis of the deposited data

How the results depend on the processing

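The 16 fold changes of identity genes that the naming rule chose kept their direction in 400 of 400 values (25 alternatives), and 13 of these passed the threshold. They were chosen for a small p in these same data, so a kept direction was likely beforehand. Outside that rule some directions changed without the pair that stands apart. Sox3 in shLINE_Orf1 against shControl was -0.03 with all libraries and 0.27 without the pair. Among others, Fabp7 against shControl went from -0.10 to 0.12 in shLINE_Orf1+LINE-1, from -0.21 to 0.0036 in shLINE_MdV_I and from -0.07 to 0.15 in shLINE_Orf2. Nes in shLINE_Orf2 against shLINE_Orf1 went from 0.05 to -0.24. The count of identity genes called was 0 in 257 of 274 values and above 0 in 17. RLE, no scaling, other filters and DESeq2 gave 0 genes in each comparison, and DESeq2 called 1 transcript. The counts above 0, whose causes were not tested, were as follows. Without the pair that stands apart, 1 gene (Sox3) was called in the F test, in shLINE_MdV_I and in shLINE_Orf1+LINE-1 against shControl, and 1 transcript was called. With limma-voom, 2 were called in the F test and in shLINE_Orf1+LINE-1 against shControl, 4 in shLINE_MdV_I against shLINE_Orf1, and 1 each in shLINE_MdV_I against shControl, shLINE_Orf2 against shControl, and in the other pairs of shRNA groups apart from shLINE_Orf1+LINE-1 against shLINE_Orf1. In fits of the compared groups alone, 1 was called in shLINE_Orf1+LINE-1 against shLINE_Orf2 (Sox3) and 1 against shLINE_MdV_I (Sox2). With the last number of the library description as a covariate, 1 was called in shLINE_MdV_I against shControl (Sox9), beside 1.1% of all genes. In shLINE_MdV_I against shLINE_Orf1 that covariate gave 6, where 13.6% of all genes were called. That number differs from the rest only in shLINE_Orf1 replicate 1, which stands apart, and in shLINE_MdV_I replicates 2 and 3. Leaving out each library gave between 0 and 1 in shLINE_MdV_I against shLINE_Orf1 (Fabp7 without shLINE_Orf1 replicate 2, adjusted p 0.0474 by edgeR's test). The fit with that call called 1.7% of all genes. With the replicate number as a block, 0 identity genes were called. Whether the numbers pair the samples is not known. Of 30 same-numbered pairs, 3 had a correlation of deviations over 0.1 (range -0.271 to 0.18), and 4 of 15 libraries correlated best with their own number. The deviations are from means of 3 libraries and include the pair that stands apart, so they cannot exclude pairing. Prom1 and Msi1, below 9 CPM, have the fewest reads behind their values. Intervals and calls rest on 3 libraries a group. The shLINE_Orf1 group and the shControl group each lose 1 of these when the pair that stands apart is set aside.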
